A study of Mus musculus with 6 samples.

Results

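The Ifit and Oas genes are antiviral effectors, and 10 of them (Ifit1, Ifit2, Ifit3, Oas1a, Oas1b, Oas1g, Oas2, Oas3, Oasl1 and Oasl2) were followed here across the arrays of mouse endothelial cells. They were found by name, as the non-control spots whose design sequence or description names one of these genes. This gave 14 spots out of 59305 non-control spots on each array, and 10 genes out of 21585 that could be named. The 14 spots comprised 3 for Oas1b, 2 each for Oas1a and Oas1g and 1 for each of the other genes.

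RNA was measured on 6 single-color arrays (Agilent SurePrint Mouse G3), with 3 arrays for 1G11-mock cells and 3 for 1G11-SOD3 cells. 1G11 is a line of mouse microvascular endothelial cells, for which the labels give the strain C57BL/6NCrLBR. 1G11-SOD3 cells overexpress SOD3, the extracellular superoxide dismutase, and 1G11-mock cells are the control line without it. Before RNA was taken, both lines, controls included, spent 6 h in conditioned medium from N202.1A, a mouse mammary cancer line, so that no array shows either line without tumor cell medium. The study profiled the lines to look for the route by which SOD3 acts on the transcription of the laminin gene Lama5. Whether each line is 1 clone is not given in the sources used here, and with a single line of each kind a difference between them cannot be told apart from other differences between the lines.

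Type I interferon binds its receptor on the cell, and the kinases Jak1 and Tyk2 then activate a complex, with Stat2 and Irf9 among its parts, that binds interferon-stimulated response elements in DNA. Ifit proteins are among the products of that response, and Ifit1 binds viral RNA whose end differs from that of the host. Oas proteins sense double-stranded RNA and make short chains of adenylate, which lead to the cutting of RNA in the cell. Oas-like (Oasl) proteins carry the same kind of fold with ubiquitin-like domains behind it.

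The promoters of the members are shown first, since the response element is the sequence through which this response acts. The motif searched was the core of the element, GAAANNGAAA, that is GAAA copied after any pair of bases, on both strands with overlapping matches counted. RefSeq (GRCm38.p6) gave a promoter of 300 bases, 250 before and 50 after the start of the gene, for 8 of the 10 genes, with 2 starts for Ifit2. The motif was in the promoters of 5 of these 8 genes (Ifit1, Ifit3, Oas1a, Oas1g and Oas3), against 3.44% of all 32851 promoters in the same table. Those of Ifit2, Oasl1 and Oasl2 did not have these letters in the window. Stretches of 30 bases with the motif in capitals, written 5′ to 3′ along the strand of the gene, are the following. Where the motif lies on the other strand it reads TTTCNNTTTC.

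Ifit1 (chr19:34640785-34640814, plus strand): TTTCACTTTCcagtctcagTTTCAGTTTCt

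Ifit3 (chr19:34583363-34583392, plus strand): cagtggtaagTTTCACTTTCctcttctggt

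Ifit3 (chr19:34583397-34583426, plus strand): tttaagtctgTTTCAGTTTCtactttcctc

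Oas1a (chr5:120907526-120907555, minus strand): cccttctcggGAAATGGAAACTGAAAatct

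Oas1g (chr5:120887614-120887643, minus strand): tgcccttctcggGAAATGGAAACTGAAAat

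Oas3 (chr5:120777715-120777744, minus strand): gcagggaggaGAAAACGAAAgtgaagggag

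The stretches of Oas1a and Oas1g hold the same 16 bases in capitals, made of 2 overlapping matches, at 20 and 18 bases before the start. The genes themselves lie in clusters. On chromosome 19, Ifit2 and Ifit3 are neighbors, and 4 genes separate Ifit3 from Ifit1, among them the relatives Ifit1bl1, Ifit3b and Ifit1bl2. On chromosome 5, Oas2 lies next to Oas3 and Oas1g next to Oas1a, with Oas1b between these pairs and other Oas1 genes on either side of it, while Oasl1 and Oasl2 lie apart, with 138 genes between Oasl1 and Oas2.

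Before the members are described, 2 facts of the arrays have to be given. The place of a spot mattered: spots in a central block of 128 rows and 55 columns, called the middle here, read dim on the 1G11-mock arrays, and 4 of the 14 member spots lie there. A smooth surface over row and column, fitted to spots of other genes, differed between the lines (1G11-SOD3 minus 1G11-mock) by -0.29 at one edge and by up to 3.18 in the middle, on the log2 scale and averaged over small blocks of spots. Values after this surface was taken off each array are called position adjusted. All 1G11-mock arrays were in slide row 2 and all 1G11-SOD3 arrays in slide row 1, and slide row and cell line cannot be told apart. Between 34.2% and 43.8% of non-control spots were well above background on an array, and none was saturated. Sod3 itself, measured in the middle, read 13.61, 12.66 and 9.86 on the 1G11-mock arrays and 16.37, 16.30 and 16.26 on the 1G11-SOD3 arrays, which goes with the labels. On the log2 scale the 1G11-SOD3 mean was 4.27 higher, or 2.59 higher when position adjusted. Of 8 endothelial markers, Kdr, Eng and Esam were well above background on all 6 arrays, whereas Cdh5, Tek and Tie1 were so on none.

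**Figure D1:**
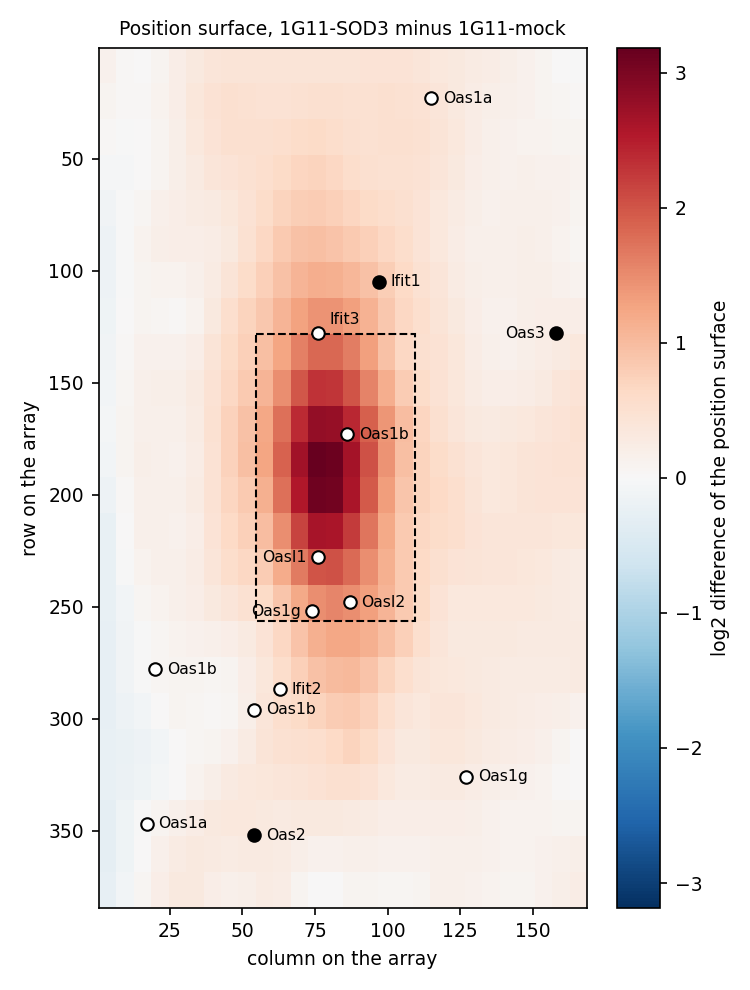
Map of an array by row and column, colored by the difference of the position surface between the lines (1G11-SOD3 minus 1G11-mock, log2 scale). Circles are the 14 member spots, filled where the gene was called lower, and the dashed box is the middle, where the surface reaches 3.18. Of the 3 filled circles, those of Oas2 and Oas3 lie far from the box.

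Levels below are log2 intensities after background correction and quantile normalization between arrays, given for replicates 1, 2 and 3 of each line, and they are compared only within a spot. A difference is the mean of 1G11-SOD3 minus that of 1G11-mock. A spot was called when the difference was more than 2-fold and its adjusted p, over all 55960 features, was under 0.05. Outside the middle, 3 of the 10 member spots were called lower in 1G11-SOD3 cells (Ifit1, Oas2 and Oas3) and 0 were called higher. There 1.20% of all features were called lower and 0.660% higher. In the middle none of the 4 member spots was called, while 12.0% of all features there were called higher and 0.0622% lower. Same-numbered arrays of the lines shared a slide column, and whether they also shared an experiment is not given in the sources used here. With the replicate number as a block, 5 spots outside the middle were called lower, the 2 of Oas1a being added, beside 1.60% of all features there. In the middle 1 was then called higher (Oas1b), beside 16.1% of all features there.

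**Figure D2:**
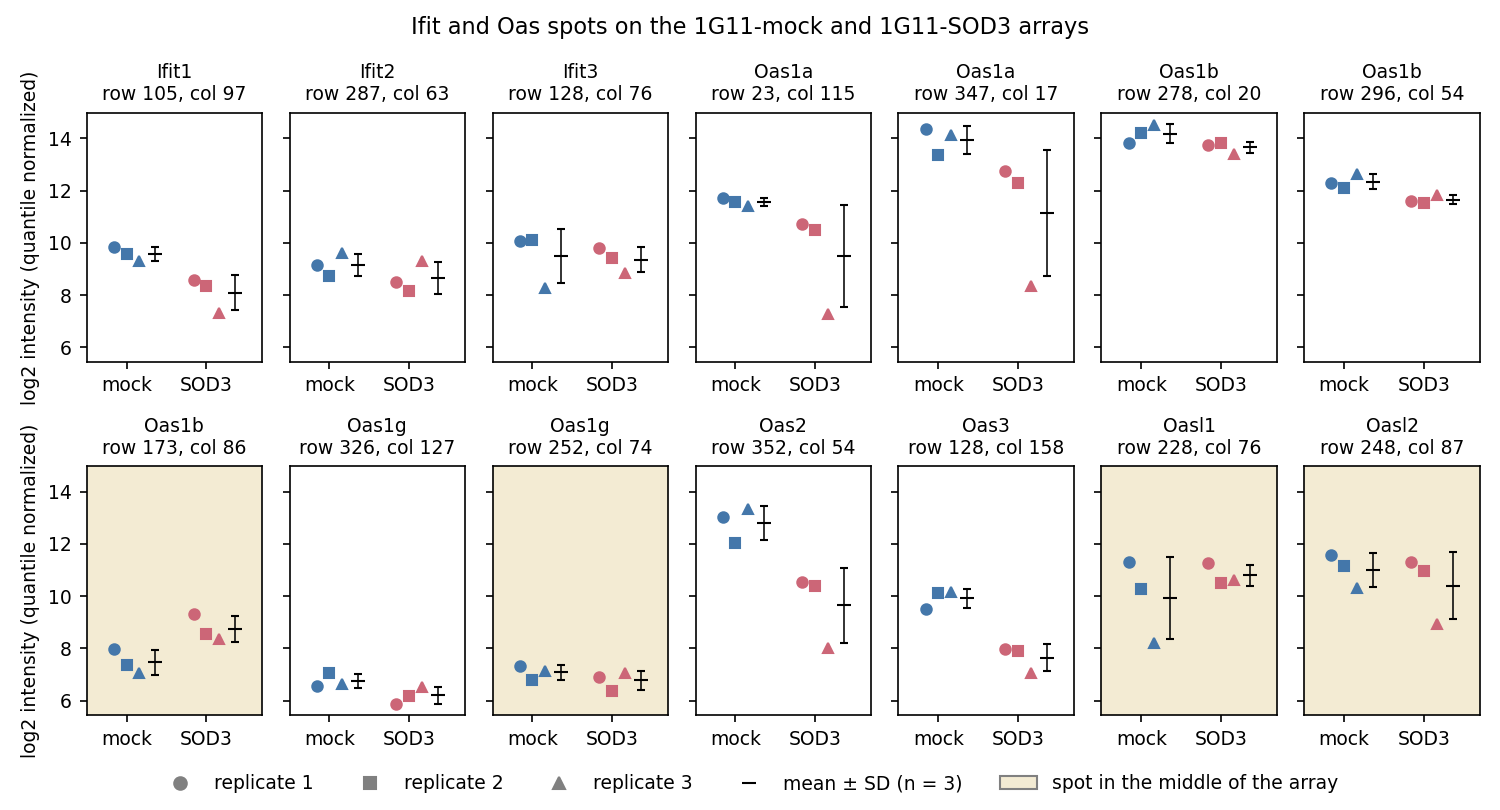
Log2 intensity of each of the 14 member spots on the 3 1G11-mock (blue) and 3 1G11-SOD3 (red) arrays, with the mean and SD (n = 3) beside them. Panels with a shaded ground are spots in the middle. For Oas2 and Oas3 every 1G11-SOD3 array lies below every 1G11-mock array. The third 1G11-SOD3 array is the lowest of its line for Ifit1, Ifit3, both spots of Oas1a, Oas2, Oas3 and Oasl2. It is also the lowest for Oas1b at rows 278 and 173.

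Oas2, one of the large synthetases of the family, had the largest difference among the members. Its spot (row 352, column 54, far from the middle) read 13.01, 12.05 and 13.31 in 1G11-mock and 10.53, 10.39 and 8.00 in 1G11-SOD3 cells. The lines did not overlap, and replicate 3 was the highest 1G11-mock array and the lowest 1G11-SOD3 array. The mean was 12.79 ± 0.66 (SD, n = 3) against 9.64 ± 1.42 (SD, n = 3), which is 8.89-fold lower (log2 fold change -3.15, standard error 0.578, adjusted p = 0.0135). The position surface differed by 0.31 at this spot, and the position-adjusted log2 fold change was -3.01 (adjusted p = 0.0245). Without 1G11-SOD3 replicate 3, the lowest array, it was -2.33 (adjusted p = 0.0217). Leaving out 1G11-mock replicate 3 ended the call (-2.89, adjusted p = 0.0596).

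Oas3, the largest synthetase, also fell. Its spot (row 128, column 158) read 9.50, 10.10 and 10.15 in 1G11-mock and 7.98, 7.88 and 7.04 in 1G11-SOD3 cells, and the lines were apart as for Oas2. It was well above background on all 1G11-mock arrays but on only 1 of the 3 1G11-SOD3 arrays. Oas3 was 4.88-fold lower in 1G11-SOD3 cells (log2 fold change -2.29, standard error 0.301, adjusted p = 0.00233). The position-adjusted value was -2.05 (adjusted p = 0.00325). Oas3 was called with any 1 array left out, with log2 fold changes from -2.50 to -1.99, the weakest being that without 1G11-SOD3 replicate 3 (adjusted p = 0.0151).

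For Oas2 and Oas3, the stretches of 30 bases with which the spots begin are given, since these are the transcript sequences on which the largest differences were measured. The array annotation places the Oas2 sequence on chromosome 5 from 121180343 to 121180402 and the Oas3 sequence from 121203598 to 121203657, both on the minus strand, in a genome build left unnamed there.

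Oas2, row 352: ctggggactctgcagttggctgttcattta

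Oas3, row 128: actagacaccctaggaaccagacatctcta

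The longest run of bases that the 60-base sequences of these spots share is 9. Apart from the Oas1b pair described below, no 2 member spots share a longer run.

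Oas1a, an active synthetase, was measured by 2 spots outside the middle, and both read lower on every 1G11-SOD3 array without being called. The spot at row 23 read 11.70, 11.57 and 11.42 in 1G11-mock and 10.72, 10.49 and 7.26 in 1G11-SOD3 cells. The spot at row 347 read 14.36, 13.34 and 14.12 against 12.74, 12.29 and 8.36. In both spots the third 1G11-SOD3 array stood far below the other two, by more than 3 on the log2 scale. On that array the spot at row 23 was not well above background. It was so on all 3 1G11-mock arrays and on 2 of the 1G11-SOD3 arrays. The log2 fold changes were -2.08 (standard error 0.699, adjusted p = 0.171) and -2.81 (standard error 0.872, adjusted p = 0.132). With the replicate as a block both were called (adjusted p = 0.0452 and 0.0444). Without 1G11-SOD3 replicate 3 the values were -0.96 (adjusted p = 0.111) and -1.43 (adjusted p = 0.0876), so that 1 array sets the size of these differences. Position adjustment gave -2.06 and -2.41. The annotation lists transcripts of both Oas1a and Oas1g for the spot at row 347, and which of the genes it measures is therefore uncertain. The spot at row 23 is listed for Oas1a alone. The stretches with which the 2 spots begin are shown as the sequences behind these values.

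Oas1a, row 23: tgatgtgtgggtatggtacccatgttttat

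Oas1a, row 347: tgtccacctgttggaaggttctgtctgaca

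Oas1g, a close copy of Oas1a, was at background throughout: neither its spot outside the middle (row 326) nor that in the middle (row 252) was well above it on any array. The spot at row 252 is listed for Oas1a as well. The log2 intensities of the 2 spots ran from 5.88 to 7.32, and no fold change is given.

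Oas1b, a factor in resistance to flaviviruses of which common laboratory strains carry a truncated form, was not called at either of its spots outside the middle. Its spot at row 296 read 12.28, 12.08 and 12.65 in 1G11-mock and 11.59, 11.52 and 11.83 in 1G11-SOD3 cells, which did not overlap. Its log2 fold change, -0.69, was under 2-fold (adjusted p = 0.182). The spot at row 278 read 13.81, 14.20 and 14.52 against 13.73, 13.82 and 13.40, with overlap, and differed by -0.53 (adjusted p = 0.375). Both are described as Oas1b in the array annotation, though none of the transcripts listed for them was found in the RefSeq table used here. The spot at row 278 is named there by the same transcript as the spot at row 173, which is listed for Oas1b. The spots at rows 296 and 278 are not independent, since their sequences share a run of 42 bases, which begins as follows.

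Oas1b, shared by rows 296 and 278: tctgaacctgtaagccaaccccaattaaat

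The third Oas1b spot, at row 173 in the middle, went the other way. It read 7.99, 7.34 and 7.05 in 1G11-mock cells and 9.29, 8.54 and 8.36 in 1G11-SOD3 cells. None of the 1G11-mock arrays but all 3 1G11-SOD3 arrays had it well above background. The reading on the 1G11-SOD3 arrays was at least 1.57-fold higher (adjusted p = 0.0548, not called). That bound takes no account of the place of the spot and is not one on the level in the cells. With the replicate as a block the spot was called higher (adjusted p = 0.00831). The position surface differed by 2.63 at this spot, and the position-adjusted log2 fold change was -0.84 (adjusted p = 0.0822). The adjusted median in the middle was -0.66 over all features and -0.12 over those well above background on at least 1 array.

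Ifit1, which binds viral RNA without cap methylation, fell in 1G11-SOD3 cells. Its spot (row 105, column 97) read 9.82, 9.58 and 9.31 in 1G11-mock and 8.57, 8.36 and 7.31 in 1G11-SOD3 cells, with no overlap. It was well above background on all 1G11-mock and on 2 of 3 1G11-SOD3 arrays. Ifit1 was 2.80-fold lower (log2 fold change -1.49, standard error 0.324, adjusted p = 0.0309). The call was lost when 1G11-mock replicate 1, 2 or 3 was left out (adjusted p = 0.0851, 0.111 and 0.0533) and when 1G11-SOD3 replicate 2 (0.0508) or 3 was (-1.10, adjusted p = 0.0876). It was also lost with the middle left out of the normalization (-1.35, adjusted p = 0.0621). The position surface at its spot was 0.84 higher on the 1G11-SOD3 arrays, and the position-adjusted log2 fold change was -1.83 (adjusted p = 0.0188). Its sequence lies on chromosome 19 from 34723796 to 34723855 on the plus strand, in the same unnamed build.

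Ifit1, row 105: cacacattactggaaagatactaagaacca

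Ifit2, which shares the repeats that give the family its name, was not called. It read 9.13, 8.72 and 9.59 in 1G11-mock and 8.49, 8.16 and 9.32 in 1G11-SOD3 cells, and the lines overlapped. The log2 fold change was -0.49 with a 95% confidence interval from -1.22 to 0.23 (adjusted p = 0.553).

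Ifit3 had its spot at row 128 and column 76, 1 row outside the middle. It read 10.08, 10.09 and 8.28 in 1G11-mock and 9.78, 9.44 and 8.85 in 1G11-SOD3 cells. The third 1G11-mock array was below all others and was the only one of the 6 on which the spot was not well above background. The log2 fold change was -0.13 (95% confidence interval from -1.11 to 0.85, adjusted p = 0.931), and its direction turned without 1G11-mock replicate 1 or 2 or 1G11-SOD3 replicate 3. The position surface differed by 1.63 there, and after position adjustment the log2 fold change was -1.23 (adjusted p = 0.0272), which was called lower.

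Oasl1, which limits translation of Irf7, and Oasl2, which has kept synthetase activity, were each measured by 1 spot in the middle. Oasl1 (row 228) read 11.30, 10.26 and 8.22 in 1G11-mock and 11.25, 10.50 and 10.61 in 1G11-SOD3 cells, with overlap. Its log2 fold change was 0.86 (95% confidence interval from -0.44 to 2.16, adjusted p = 0.570), and -0.92 after position adjustment (adjusted p = 0.150). Oasl2 (row 248) read 11.57, 11.15 and 10.29 against 11.31, 10.95 and 8.92. Its log2 fold change was -0.61 (adjusted p = 0.671), or 0.13 without 1G11-SOD3 replicate 3, and -1.60 after position adjustment (adjusted p = 0.0929). For both genes the third 1G11-mock array was the lowest of its line, and the third 1G11-SOD3 array was low for Oasl2 but not for Oasl1.

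**Figure D3:**
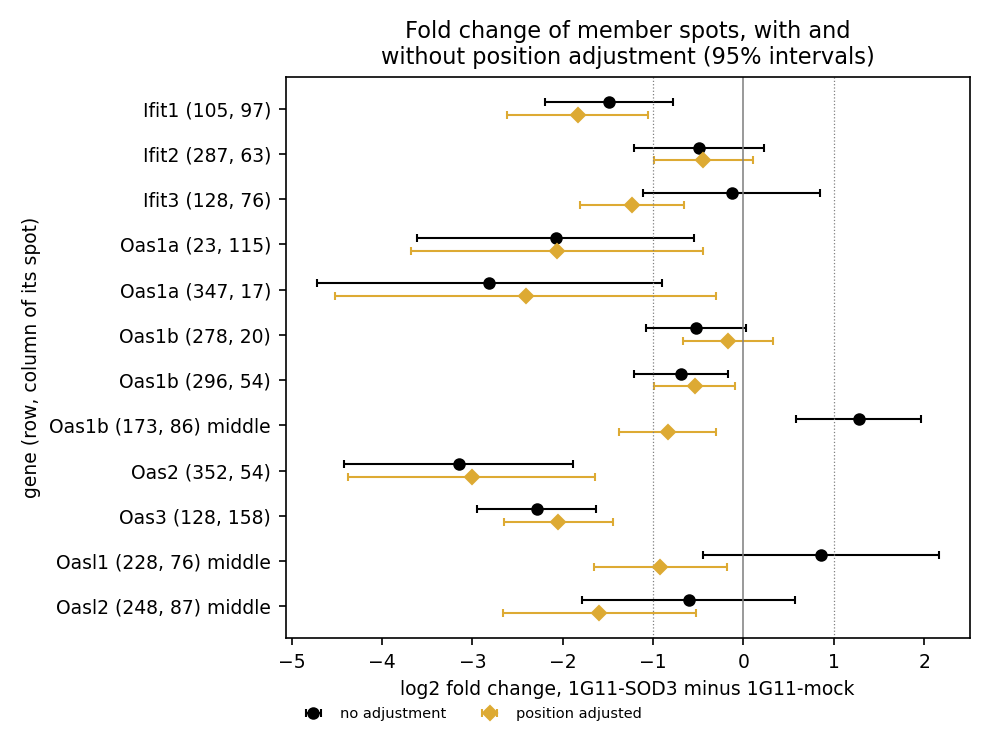
Log2 fold change (1G11-SOD3 minus 1G11-mock) of the 12 member spots that were well above background on at least 1 array, without (black circles) and with (yellow diamonds) position adjustment. Bars are 95% confidence intervals, and dotted lines mark 2-fold. The values of Oas2 and Oas3 barely move, Ifit3 goes from -0.13 to -1.23, and Oas1b in the middle and Oasl1 change sign.

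After position adjustment, all 12 spots that were well above background on at least 1 array had log2 fold changes below 0, from -3.01 (Oas2) to -0.17 (Oas1b, row 278). They were 9 spots outside the middle, where 41.7% of such features were below 0 (median 0.08), and 3 in the middle, where 55.8% were (median -0.12). Of the 10 spots outside the middle 4 were then called lower (Ifit1, Ifit3, Oas2 and Oas3), beside 0.802% of all features there, and 0 of the 4 in the middle, where 19.4% of all features were called lower. That share among all features in the middle was near 0 before adjustment, and adjusted values in the middle rest on the fitted surface.

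Of the 10 member spots outside the middle, the 9 other than Oas1g, which was at background, had a log2 fold change below 0, though that of Oas1b at row 278 was above 0 with the processed signal and that of Ifit3 with the middle left out. With Oas1g included the median was -1.09, against -0.06 over all 49526 features there. For the 9 spots that were well above background on at least 1 array it was -1.49, against -0.11 over 22525 such features. For 7 of the 10 member spots outside the middle, Oas1g included, all 1G11-SOD3 arrays read lower than all 1G11-mock arrays, which held for 11.4% of all features there. Among spots well above background on at least 1 array it held for 6 of the 9, against 3726 of the 22525 such features. An exact permutation test of 3 arrays against 3 cannot give a two-sided p below 0.1 for a single spot. The third 1G11-SOD3 array was the lowest of its line for 7 of the 9 spots, against 39.5% of all such features, and lay below the mean of the other two by a median of -0.89, against -0.01 for all. Without that array the median of the 9 spots was -0.96, against -0.11 over all such features. Of the 9, 2 remained called lower (Oas2 and Oas3), beside 323 of the 22525 such features. Over the 6 arrays, 31 of the 36 pairs among the 9 spots had a Pearson correlation above 0 (median 0.70, lowest -0.59), as a description in which all points share the same slide and the same difference between the lines.

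The other genes of the interferon response came from a list of 39 genes chosen by role, each given by 1 feature, the brightest outside the middle where there was one. Of these, 11 were called lower and 2 higher in 1G11-SOD3 cells, beside 1.07% and 1.97% of all 55960 features. The lines did not overlap and 1G11-SOD3 was lower for 23 of the 39, against 10.3% of all features. Most of the list was outside the middle and above background, unlike all features. Of the 32 genes well above background on at least 1 array it held for 21, against 3726 of 22525 such features outside the middle. These 32 held all 11 lower and 2 higher calls, beside 590 lower and 327 higher among those 22525 features. The median log2 fold change of the 32 that were well above background on at least 1 array was -0.91. Without 1G11-SOD3 replicate 3 it was -0.72, with 5 called lower and 1 higher, beside 326 lower and 517 higher of all 55958 features then tested. The third 1G11-SOD3 array was the lowest of its line for 22 of the 32, against 39.5% of features outside the middle that were well above background on at least 1 array. It lay below the mean of the other arrays of its line by a median of -0.62, against -0.01 for those features. After position adjustment 10 of the 39 were called lower and 0 higher, beside 2.93% and 1.18% of all features. One of the 10, Ifit1bl1 in the middle, was at background on every array, and it is named here after its values were seen.

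Among ligand, receptor and signal transduction genes, Irf7, the factor that amplifies the response, fell (-1.53, adjusted p = 0.0314), as did the kinase Tyk2 (-1.19, adjusted p = 0.0443, and -0.91 and not called after position adjustment). Ifnar2, a chain of the receptor measured in the middle, was called higher (3.27, adjusted p = 0.00320), and after position adjustment it was 0.92 and not called. The brightest other genes of this group, Irf3 (-0.56), Jak1 (-0.51) and Stat2 (-0.91), were not called. The spot of Ifnb1, an interferon, was at background on all arrays.

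Of the genes that act after the Oas enzymes, Abce1 (-0.74) and Pde12, which degrades their product (-0.06), were not called. Among the sensors of RNA, Ifih1 fell (-1.16, adjusted p = 0.0496, and -1.15 after position adjustment), whereas Ddx58 (-0.36) and the adaptor Mavs (-0.81) were not called. Eif2ak2, the kinase known as PKR, was measured in the middle and was called higher (1.90, adjusted p = 0.0457), and was 0.50 and not called after position adjustment.

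The group of other interferon-stimulated genes held most of the calls, 7 of 14 being lower. These were Usp18, which removes Isg15 from proteins (-2.59, adjusted p = 0.00922), the antiviral GTPases Mx2 (-2.44, adjusted p = 0.00138) and Mx1, and Ifi44 (-1.98, adjusted p = 0.00258), Cmpk2 (-1.22, adjusted p = 0.0263), Parp14 (-1.75, adjusted p = 0.0451) and the chemokine Cxcl10 (-2.07, adjusted p = 0.0309). Mx1 was not well above background on any 1G11-SOD3 array and was at least 2.53-fold lower (adjusted p = 0.00333). Cxcl10 was not called after position adjustment (-1.35, adjusted p = 0.100), and the other 6 were. The 3 brightest of the group were not called, namely Isg15 (-1.55, adjusted p = 0.292), Bst2 (-1.72, adjusted p = 0.133) and Ifitm3 (-0.54, adjusted p = 0.360). On the 1G11-SOD3 arrays Isg15 read 13.59, 13.39 and 10.43 and Bst2 14.77, 14.44 and 12.13, the third array being far below the others. Their 1G11-mock means were 14.02 and 15.50.

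Among the close paralogs of the members, Ifit3b fell (-1.86, adjusted p = 0.00305, and -1.26 after position adjustment). Oas1f (-1.71, adjusted p = 0.109), Ifit1bl2 (-0.69, adjusted p = 0.222) and Oas1c (1.20, adjusted p = 0.259, in the middle, and -0.47 after position adjustment) were not called. For Oas1f the 1G11-SOD3 arrays read 10.23, 10.19 and 8.04, the third far below the others. Whether spots of such close paralogs take up RNA of the members was not tested.

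**Figure D4:**
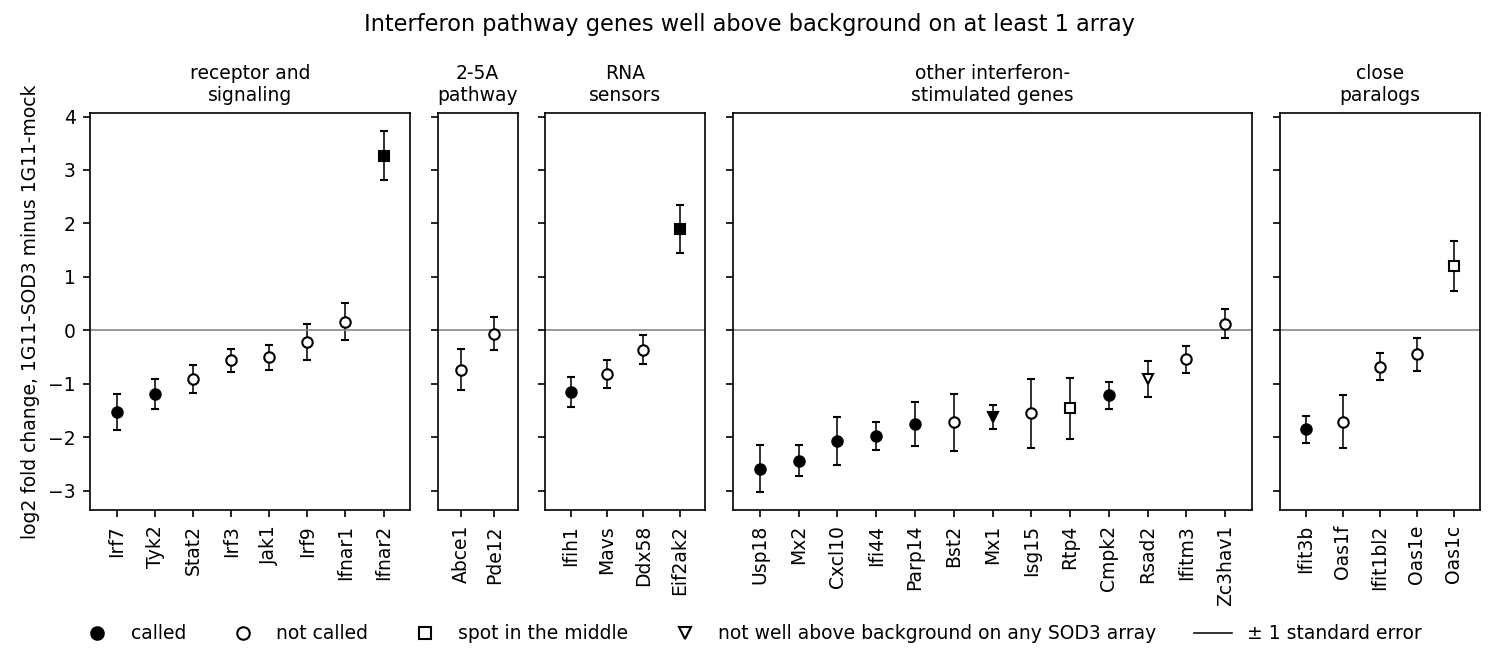
Log2 fold change (1G11-SOD3 minus 1G11-mock, with 1 standard error) of the 32 interferon pathway genes that were well above background on at least 1 array, by role. Filled symbols were called, squares are spots in the middle, and triangles were not well above background on any 1G11-SOD3 array. Triangles are drawn at the measured change and not at a bound. Both genes called higher, Ifnar2 and Eif2ak2, are squares.

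The genes whose levels over the 6 arrays were most like the mean of the 9 member spots, among 11247 named features outside the middle that were well above background on every array, were Mical1 (Pearson r = 0.999), H2-K1, a class I histocompatibility gene that presents peptides to T cells (0.997), Dhps (0.996), Zfp703 (0.996) and Foxc2 (0.994). H2-K1 differed by -1.33 (adjusted p = 0.0375) and Zfp703 by -1.71 (adjusted p = 0.0325), and both were called lower. After position adjustment H2-K1 was called (-1.31, adjusted p = 0.0295) and Zfp703 was not (-1.06, adjusted p = 0.0888). Mical1 (-0.88), Dhps (-0.40) and Foxc2 (-0.62, and 0.01 after position adjustment) were not called. These correlations are a description over 6 arrays.

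Markers of other cell types were examined beside these results. Of 4 mesenchymal markers, Col1a1 (log2 fold change 3.10), Acta2 (2.62) and Pdgfrb (2.40) were called higher in 1G11-SOD3 cells, and the summed intensity of the 4 ran from 4776 to 7559 on the 1G11-mock and from 28858 to 37248 on the 1G11-SOD3 arrays. That of the 8 endothelial markers ran from 20278 to 28493 and from 13792 to 17002, with none called. Such sums are set mostly by the brightest spots, here those of Eng (log2 fold change -1.05) and Kdr (-0.51). Esam, measured in the middle, differed by 1.22, or by -0.50 when position adjusted. Of 4 epithelial markers none was called, and 2 were well above background on no array. Of the hematopoietic markers (Ptprc, Cd68 and Lyz2) none was well above background on any array. The part of the mesenchymal markers in the differences of the Ifit and Oas genes was not tested, and in a whole culture fewer cells with a transcript and less of it per cell cannot be told apart.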

How the data were processed

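Per the labels and the methods, total RNA was labeled with Cy3 and hybridized to 1 array per sample. The authors deposited, for each array, the Agilent Feature Extraction 10.7.3.1 output, in which mean and median spot intensity, local background intensity and a processed signal are not normalized between arrays, and a table of log2 values that the authors had background corrected (normexp, offset of 50) and quantile normalized. Here the mean intensity was normexp corrected (offset of 50), taken to log2 and quantile normalized over non-control spots with limma 3.58.1 in R 4.3.3. Flagged outlier spots were left out. Spots of 1 sequence were averaged, separately in the middle and elsewhere, giving 55960 features. The lines were compared by limma with Benjamini-Hochberg adjustment over all features, and the fit was tested on simulated data. The simulated noise was independent between arrays, with no effect of position and no pairing of replicates. It therefore cannot show how such effects bear on the calls. Position surfaces came from mgcv 1.9.3 (20 by 12 basis functions). Deviations of same-numbered arrays, which shared a slide column, correlated across features (r = 0.17, 0.10 and 0.16). For differently numbered arrays of the 2 lines r ran from -0.17 to 0.06. The replicate block was therefore used beside the main fit. The number of arrays limits the precision. The members and lists were chosen with earlier results of these data known. The text names all member spots, every called gene and the 3 brightest of each role in the interferon list, and the 5 genes most like the members, apart from some genes of that list that are not reported here. Promoters were read with Python 3.11.15 from RefSeq sequences, and figures drawn with matplotlib 3.10.9.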

Additional observations from a re-analysis of the deposited data

How the results depend on the processing

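Member spots outside the middle numbered 3 called, all lower. The count was 5 with scaling to the 75th percentile and with the replicate block, and 1 with position adjustment over features well above background on all arrays, an alternative chosen after seeing the data that leaves 5 of the members' spots there. It ran from 1 to 3 with 1 array left out. Of the spots in the middle 0 were called, against 1 lower with the processed signal (Oas1g, at background), 1 higher (Oas1b) under each of the filter on dim probes and the replicate block, and 0 to 1 with 1 array left out. Of all features 1697 were called (1101 higher, 596 lower). The count was 1093 without background correction, 11244 with the processed signal (1235 higher), 2596 with scaling to the 75th percentile, 768 with the middle left out (412 higher) and 648 in the position adjustment over features well above background on all arrays (288 higher), and 795 to 1855 with 1 array left out. With position adjustment 28.8% of calls were higher, against 64.9%. The processed signal moved the median log2 fold change of all features to -0.52, and 75th percentile scaling to -0.34. The interferon list had 13 called, against 6 without background correction or with the middle left out, 7 in the position adjustment over features well above background on all arrays, and 6 to 10 with 1 array left out. Some directions turned. The log2 fold change of Ifit3 was 0.0017 with the middle left out and from -0.73 to 0.17 with 1 array left out. That of Oas1b in the middle was -0.84 and that of Oasl1 -0.92 with position adjustment. That of Oas1b at row 278 was 0.20 with the processed signal, and that of Oasl2 ran from -1.06 to 0.13 with 1 array left out. Oas2 and Oas3 were called under every alternative with all arrays in which they were tested, from -3.29 to -2.87 and from -3.59 to -1.66. Causes of these shifts were not tested, and signal over background limits Oas1g, Oas3 and the third Oas1b spot. It also limits Ifit1, Ifit3, Oasl1 and Oas1a at row 23, each well above background on 5 of the 6 arrays.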
